A study of Mus musculus with 8 samples.

Results

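The Hox cluster genes were the protein-coding entries of the count table whose symbol is Hox, a cluster letter from a to d and a paralog number. This rule, which uses names and no values, found 39 of the 55471 entries, with 11 in HoxA, 10 in HoxB, 9 in HoxC and 9 in HoxD. A count was present in all 8 libraries for 26 of them, and 33 passed the filter on low counts and were tested. The 6 that did not pass were Hoxb1, Hoxb3, Hoxb4, Hoxb5, Hoxb7 and Hoxd3, so statements on tested members leave these out. Hoxd12 passed the filter through its counts in 4 libraries alone. Hoxb2 would not have passed it without its counts in wild-type BCSP.

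Femurs of neonates (day 3 to 5) gave 2 populations sorted by flow cytometry: bone cartilage stromal progenitors (BCSP) and skeletal stem cells (SSC). The donors were Tet1 knockout (KO) and wild-type mice, and total RNA was sequenced as pairs of 150 base reads. The 4 groups, wild-type SSC, wild-type BCSP, KO SSC and KO BCSP, held 2 libraries each, titled round 1 and round 2 and called library 1 and library 2 of the group here. The strain label B6;129S4-Tet1tm1.1Jae/J stands on all 8 samples, wild type included. What a round shares (day, litter or pool), the number and sex of the pups, and whether a group's libraries stem from different animals are not given in the sources used here. The p-values therefore cover only the spread between these samples, which may be technical.

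Hox genes encode homeodomain transcription factors that give positional identity along the body axis and along the limb. Within a cluster the order of the genes matches the order in which they are expressed: genes of low paralog number lie at one end and act in anterior or proximal structures, and the genes of high paralog number at the other end act in posterior or distal structures. In limbs, HoxA and HoxD genes of the highest numbers pattern the long bones and the hand or foot plate, and HoxC genes of high number are active in the hindlimb. Skeletal progenitor cells after birth keep a Hox pattern that reflects where in the skeleton they sit. Tet1 encodes a dioxygenase that oxidises methylated cytosine in CpG dinucleotides, and Hox clusters carry many such dinucleotides.

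Library totals ran from 104782544 to 168004119 counts, and 3 genes (Col2a1, Col11a2 and Sparc) took 28.5 to 34.7% of them. Levels are given as CPM, counts per 1e6 of the TMM-scaled library size, and as CPM per kb of exon where genes are compared with each other. The targeted gene Tet1 stood at 10.98 to 21.6 CPM in the wild-type libraries and at 7.26 to 11.97 CPM in those labelled KO, so the ranges overlapped, with an edgeR adjusted p of 0.608; gene counts do not show a deleted part. The sort was visible in Eng, a surface protein used to select BCSP, at 2.53 to 3.89 CPM in SSC and 25.7 to 50.5 CPM in BCSP. The hindlimb genes Pitx1 and Tbx4 stood at 50.2 to 94.0 and 12.5 to 38.0 CPM, and the forelimb gene Tbx5 at 5.25 to 11.1 CPM. The 10 cartilage markers together stood at 280754 to 366677 CPM.

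The femur populations carried a Hox pattern of HoxA, HoxC and HoxD genes with almost no HoxB. All 39 members together summed to 162 CPM in wild-type SSC library 1, 167.7 CPM in wild-type BCSP library 1, 170 CPM in KO SSC library 1 and 176 CPM in KO BCSP library 1. Library 2 of the same groups summed to 165, 175, 175 and 173 CPM. The total thus varied little, by less than the shares of its clusters did. HoxA held 65.6 to 89.6 CPM, HoxC 38.5 to 95.4 CPM and HoxD 11.02 to 40.5 CPM. HoxB held 0.205 to 1.04 CPM, and its highest member per kb, Hoxb13, averaged 0.116 CPM per kb.

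Per kb of exon, the 5 highest members by their mean over the 8 libraries were Hoxc10 (13.4 CPM per kb), Hoxa10 (9.78), Hoxa11 (5.84), Hoxd13 (5.02) and Hoxc12 (4.59). The spread of these levels over the libraries was wide for all but Hoxa10: the SD was 4.05 CPM per kb for Hoxc10, 1.36 for Hoxa10, 2.32 for Hoxa11, 5.40 for Hoxd13 and 3.13 for Hoxc12 (SD, n = 8). Of neighbours in this order, Hoxa10 and Hoxa11 alone differed by more than either SD, and the other pairs did not differ beyond their spread. This order pools rounds that differ and holds in neither. In round 1 the means were 9.98 ± 1.65 for Hoxd13, 9.79 ± 1.17 for Hoxc10, 9.46 ± 0.924 for Hoxa10 and 7.68 ± 0.967 for Hoxa11 (CPM per kb, SD, n = 4), and Hoxd13 was the highest member in 3 of the 4 libraries. In round 2 they were 17.0 ± 1.47 for Hoxc10, 10.1 ± 1.78 for Hoxa10 and 7.05 ± 2.54 for Hoxc12 (CPM per kb, SD, n = 4), Hoxc10 was the highest in 4 of 4, and Hoxd13 lay between 0 and 0.1404. By paralog number, groups 9 and 10 summed to 70.5 to 104 CPM and made up 40.9 to 59.4% of the summed Hox CPM, and groups 1 to 4 made up 4.02 to 8.93%.

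**Figure D1:**
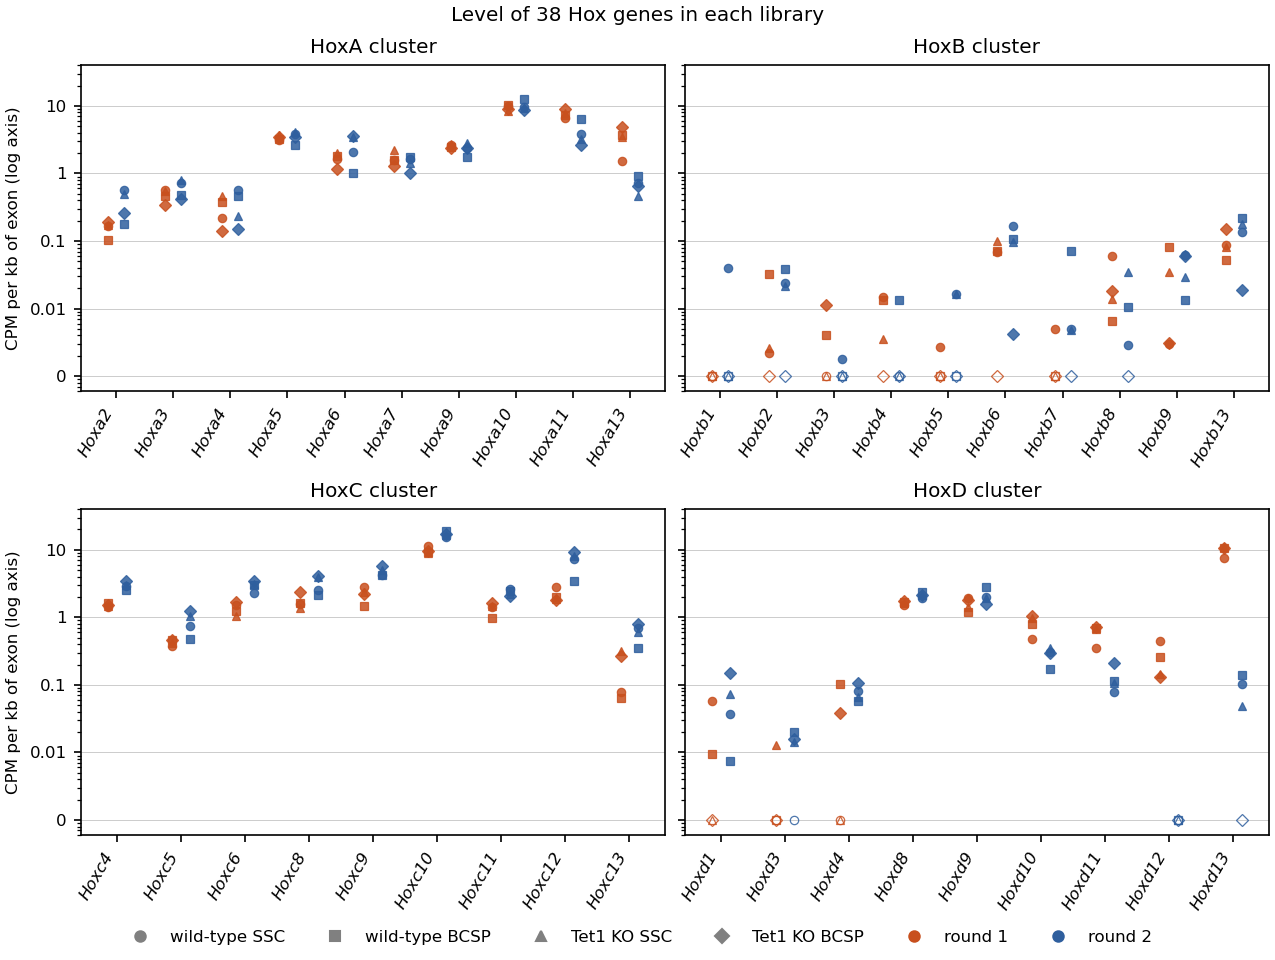
CPM per kb of exon (log axis, with 0 drawn at the foot as open symbols) of 38 Hox genes by cluster and paralog number, 1 point per library, coloured by round and shaped by group. HoxB lies near the floor, Hoxa10 and Hoxc10 lie near the top in every library, and the points of the 2 rounds part for Hoxa11, Hoxa13, most of HoxC and Hoxd10 to Hoxd13.

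Members of HoxA, HoxC and HoxD differed between the rounds. Hoxd13, Hoxd12, Hoxd11, Hoxa13 and Hoxa11, genes at the 5′ end of HoxD and HoxA, were higher in round 1. Hoxc4, Hoxc6, Hoxc9, Hoxc10, Hoxc12 and Hoxc13 were higher in round 2. In an edgeR quasi-likelihood test of round 1 against round 2 with genotype and cell type as terms, 11 of the 33 tested members passed an adjusted p of 0.05 (Benjamini-Hochberg over 22153 genes), 5 higher and 6 lower in round 1. Hoxd12 was tested only because of its round 1 counts; without it, 10 of 32 passed, 4 of them higher in round 1. Over all tested genes 2.15% passed, 0.745% higher and 1.40% lower. The median log2 difference of the tested members was -0.45, also with Hoxd12 set at the lower bound given below for it, against -0.0071 over all tested genes. In bulk RNA, fewer cells of a type and less RNA per cell cannot be told apart.

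The sum over all 39 members did not follow the rounds: it was 169 ± 5.51 CPM in round 1 and 172 ± 4.78 CPM in round 2 (SD, n = 4 each), and the ranges overlapped. Its composition did. HoxD summed to 30.5 to 40.5 CPM in round 1 and to 11.02 to 13.8 CPM in round 2. HoxC summed to 38.5 to 47.7 CPM in round 1 and to 76.8 to 95.4 CPM in round 2, and HoxA to 83.7 to 89.6 against 65.6 to 83.3 CPM. The ranges of the 2 rounds did not overlap in these 3 clusters, while the HoxB sums of 0.431 to 0.647 and 0.205 to 1.04 CPM overlapped. The excess of HoxD in round 1 lay in its 5′ part: Hoxd10 to Hoxd13 summed to 29.5 ± 4.89 CPM in round 1 and 1.23 ± 0.142 CPM in round 2, whereas Hoxd1 to Hoxd9 were lower in round 1, at 8.01 ± 0.634 against 10.7 ± 1.31 CPM (SD, n = 4 each). These sums are descriptions with no test.

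**Figure D2:**
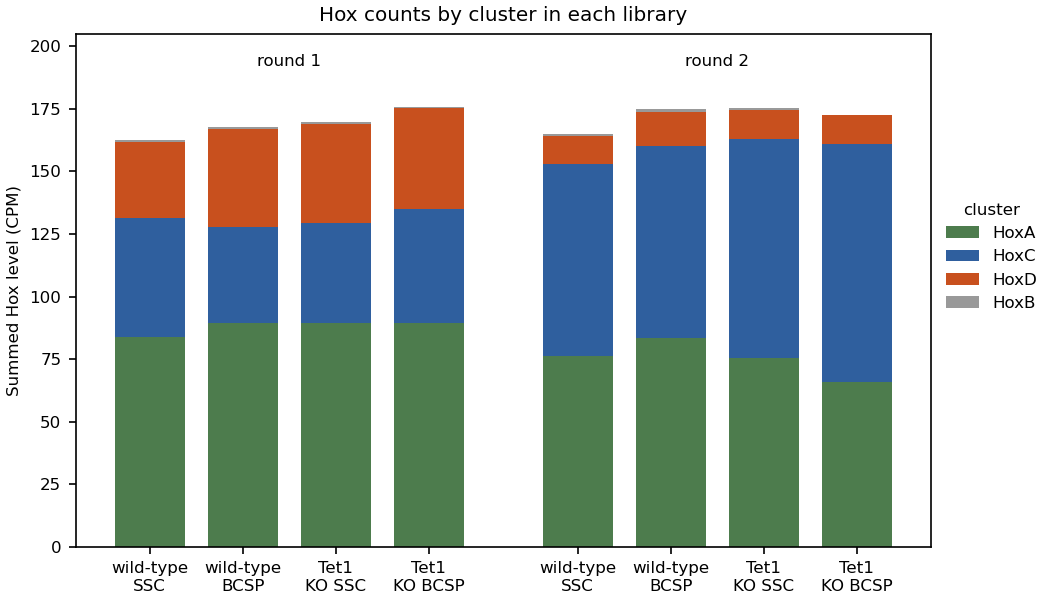
Summed CPM of the Hox genes in each of the 8 libraries, stacked by cluster, with round 1 on the left and round 2 on the right. The bars are of near equal height (162 to 176 CPM), while the HoxD part is larger in the 4 libraries of round 1 and the HoxC part larger in the 4 of round 2.

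Hoxd13 (chr2:74668310-74671599, plus strand; all gene positions are mm10) lies at the 5′ end of HoxD and patterns the digits. It stood at 18.6 CPM in wild-type SSC, 26.7 in wild-type BCSP, 27.2 in KO SSC and 26.5 in KO BCSP in round 1, and at 0.255, 0.349, 0.120 and 0 CPM in the same order in round 2. All 4 libraries of round 1 were far above all 4 of round 2, and a count of 0 in KO BCSP library 2 allows up to 0.0246 CPM (3 counts). The means were 24.8 ± 4.11 and 0.181 ± 0.153 CPM (SD, n = 4 each), a 137-fold difference, with a log2 fold change of 7.17 ± 0.59 (SE) and an edgeR adjusted p of 0.00073.

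Hoxd12 (chr2:74675013-74677705) is the next gene of the cluster and acts in the same limb domain. It stood at 1.15, 0.656, 0.361 and 0.335 CPM in wild-type SSC, wild-type BCSP, KO SSC and KO BCSP of round 1 and at 0 counts in all 4 libraries of round 2. With 307 counts against 0, the level in round 1 was at least 110-fold higher than the floor of 3 counts over the 4 libraries of round 2 (the fitted log2 value depends on the prior count and is not given). Its edgeR adjusted p of 0.00444 adds no support, since it passed the filter through round 1 alone. Hoxd11 (chr2:74679557-74687016), which with Hoxa11 patterns the forearm and lower leg, stood at 1.49, 2.94, 2.82 and 3.04 CPM in round 1 and 0.332, 0.474, 0.451 and 0.903 CPM in round 2. The rounds did not overlap, and its log2 fold change was 2.31 ± 0.29 (SE, edgeR adjusted p 0.00223). Hoxd10 had the same direction, at 0.863 to 1.87 CPM against 0.314 to 0.647 CPM, and missed the threshold (1.54 ± 0.37, edgeR adjusted p 0.05 when rounded).

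Of the HoxA genes, Hoxa13 (chr6:52257694-52260880, minus strand), which acts with Hoxd13 in the hand and foot plate, stood at 3.78, 9.13, 8.54 and 12.1 CPM in round 1 and at 1.80, 2.24, 1.14 and 1.61 CPM in round 2. Every library of round 1 was above every library of round 2, with wild-type SSC the lowest of round 1, and the log2 fold change was 2.24 ± 0.29 (SE, edgeR adjusted p 0.00223). Hoxa11 (chr6:52242106-52245810) stood at 15.3, 16.6, 17.8 and 20.5 CPM in round 1 and at 8.68, 14.4, 7.48 and 5.98 CPM in round 2. These ranges lay close without overlap, since wild-type BCSP library 2 came near the lowest of round 1, and the log2 fold change was 0.99 ± 0.23 (SE, edgeR adjusted p 0.0411). Hoxa10 (chr6:52231197-52240854), next in the cluster, stood at 33.2, 33.8, 27.6 and 29.2 CPM in round 1 and at 31.6, 41.6, 30.3 and 28.6 CPM in round 2. Its ranges overlapped and it did not pass (-0.09 ± 0.13, edgeR adjusted p 0.867).

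Antisense overlap touches 1 of these genes: 35.0% of the exon length of Hoxa11 is shared with Hoxa11os on the other strand, the strand of counting is not stated, and reads of the pair cannot be told apart. Hoxa11os itself averaged 3.94 ± 1.11 CPM in round 1 and 1.30 ± 0.590 CPM in round 2 (SD, n = 4 each; log2 fold change 1.59 ± 0.35, edgeR adjusted p 0.0355). That call was lost without wild-type SSC library 2 (0.0603), KO SSC library 1 (0.0981) or 2 (0.0521), or KO BCSP library 1 (0.0745, edgeR adjusted p). Hoxd12, Hoxd13 and Hoxa13 share no exon with another gene, and Hoxd11 shares 10.8% with a transcript on its own strand.

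The promoters of the members are shown for 3 of the genes that were higher in round 1, a choice made after their values were seen, with Hoxc4 as the HoxC gene held by the sequence table. RefSeq (GRCm38.p6) gave 24 promoter windows for 22 of the 39 genes. Here the 250 bases before the RefSeq transcription start are printed 5′ to 3′ on the gene's strand, with CpG dinucleotides in capitals. These starts can differ from the gene positions given in this text. The Hoxc4 window lies inside the span given for Hoxc4, and the Hoxd13 window ends short of the start given for Hoxd13. The windows are listed next. They are chr2:74667975-74668224 (Hoxd13, plus strand), chr2:74674763-74675012 (Hoxd12, plus strand), chr6:52260881-52261130 (Hoxa13, minus strand) and chr15:103034145-103034394 (Hoxc4, plus strand).
Hoxd13: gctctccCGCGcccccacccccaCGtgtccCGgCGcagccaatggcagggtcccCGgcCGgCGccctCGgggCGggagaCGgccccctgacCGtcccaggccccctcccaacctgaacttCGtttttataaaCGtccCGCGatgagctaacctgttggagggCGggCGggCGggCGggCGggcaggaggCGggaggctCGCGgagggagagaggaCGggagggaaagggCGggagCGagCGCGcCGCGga
Hoxd12: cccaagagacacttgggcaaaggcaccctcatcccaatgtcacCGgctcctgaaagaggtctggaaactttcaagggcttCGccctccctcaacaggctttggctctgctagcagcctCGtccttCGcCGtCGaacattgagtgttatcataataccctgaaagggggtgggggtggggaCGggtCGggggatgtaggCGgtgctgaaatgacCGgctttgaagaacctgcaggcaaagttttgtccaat
Hoxa13: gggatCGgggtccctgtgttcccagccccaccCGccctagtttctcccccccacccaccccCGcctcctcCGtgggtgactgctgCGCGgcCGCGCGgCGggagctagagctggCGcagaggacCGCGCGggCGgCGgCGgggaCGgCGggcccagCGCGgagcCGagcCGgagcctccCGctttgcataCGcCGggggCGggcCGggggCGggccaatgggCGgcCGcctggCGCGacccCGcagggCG
Hoxc4: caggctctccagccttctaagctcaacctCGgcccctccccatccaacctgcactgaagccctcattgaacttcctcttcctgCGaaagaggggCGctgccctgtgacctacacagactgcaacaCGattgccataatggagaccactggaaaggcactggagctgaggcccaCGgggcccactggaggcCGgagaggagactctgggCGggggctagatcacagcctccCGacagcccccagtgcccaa

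The Hoxd13 and Hoxa13 windows hold 31 and 35 CpG dinucleotides, more than 94.8% and 97% of the 32851 windows of all genes. The Hoxd12 and Hoxc4 windows hold 10 and 8, more than 62.2% and 57% of them. The median over the Hox windows was 12.5 CpG (2 to 35), against 6 over all windows, and the median GC content was 58.6% against 52.4%. Hoxd11, also higher in round 1, had windows of 2 and 20 CpG. A relation between CpG count and the difference between rounds was not tested. The letters CAATAAA, searched on both strands, occurred in 1 Hox window (Hoxb8) and in 4.2% of all windows, and TGACAG in 2 (Hoxa2 and Hoxa3) and in 15.9%. A match describes the letters of this window only. DNA methylation was not analysed here.

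HoxC values had the other sign along the whole cluster. All 9 members had fold changes below 0 for round 1 against round 2, between -2.04 and -0.78 with a median of -0.99, and 6 passed. Hoxc10 (chr15:102966796-102971893), a hindlimb gene, stood at 21.9, 17.6, 16.9 and 18.3 CPM in wild-type SSC, wild-type BCSP, KO SSC and KO BCSP of round 1 and at 29.4, 36.1, 31.4 and 33.0 CPM in round 2. No library of round 1 reached a library of round 2, and the log2 fold change was -0.80 ± 0.14 (SE, edgeR adjusted p 0.0121). Exon sharing of 8.7% with Hoxc5 on the same strand leaves part of its reads ambiguous.

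Hoxc12 (chr15:102936757-102938609), the neighbour of Hoxc13, stood at 2.94, 2.07, 1.92 and 1.87 CPM in round 1 and at 7.65, 3.54, 8.29 and 9.62 CPM in round 2. The rounds did not overlap, wild-type BCSP library 2 was the lowest of round 2, and the log2 fold change was -1.69 ± 0.28 (SE, edgeR adjusted p 0.00928). Hoxc13 (chr15:102921103-102928814), the gene at the 5′ end of the cluster and a regulator of hair and nail, stood at 0.191, 0.157, 0.786 and 0.654 CPM in round 1 and at 1.73, 0.858, 1.49 and 1.97 CPM in round 2. Its KO libraries of round 1 came close to wild-type BCSP library 2 without reaching it (-2.04 ± 0.44, SE, edgeR adjusted p 0.0306).

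Hoxc9 (chr15:102976439-102985099), a gene of thoracic identity, stood at 6.92, 3.53, 5.77 and 5.39 CPM in round 1 and at 10.3, 10.2, 12.2 and 14.1 CPM in round 2. Its rounds were apart in every group, with a log2 fold change of -1.13 ± 0.20 (SE, edgeR adjusted p 0.012). Hoxc6 (chr15:102998257-103011881), of more anterior identity, stood at 3.62, 3.01, 2.52 and 4.04 CPM against 5.52, 7.14, 7.56 and 8.38 CPM, and Hoxc4 (chr15:103018934-103036852), at the 3′ end of the cluster, at 3.59, 4.15, 3.77 and 3.88 CPM against 7.52, 6.53, 7.65 and 8.92 CPM. Both were lower in every library of round 1, with log2 fold changes of -1.10 ± 0.20 and -0.99 ± 0.17 (SE) and edgeR adjusted p of 0.0136 and 0.0117. Hoxc8 (-0.83 ± 0.21), Hoxc11 (-0.78 ± 0.22) and Hoxc5 (-0.96 ± 0.28) had the same sign and missed the threshold, with edgeR adjusted p of 0.0586, 0.0972 and 0.123.

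The 11 members that passed had the same direction in 4 of the 4 groups, which their selection by the test between rounds favours. Of the tested members, 6 had every library of round 1 above every library of round 2 (Hoxa11, Hoxa13 and Hoxd10 to Hoxd13, of which Hoxd12 had counts in round 1 alone), where 3.61% of all tested genes did. The reverse held for 9, namely 8 of HoxC and Hoxd8, where 4.03% of all genes did, and 18 overlapped. Hoxd8 stood at 4.14 to 4.74 CPM in round 1 and 5.25 to 6.44 CPM in round 2 (-0.39 ± 0.17, edgeR adjusted p 0.338) and Hoxd9 overlapped (-0.37 ± 0.24, edgeR adjusted p 0.571), so that the sign turned between Hoxd10 and Hoxd9. The 5 tested HoxB members did not pass, with a lowest edgeR adjusted p of 0.832; none had an unadjusted p under 0.05.

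**Figure D3:**
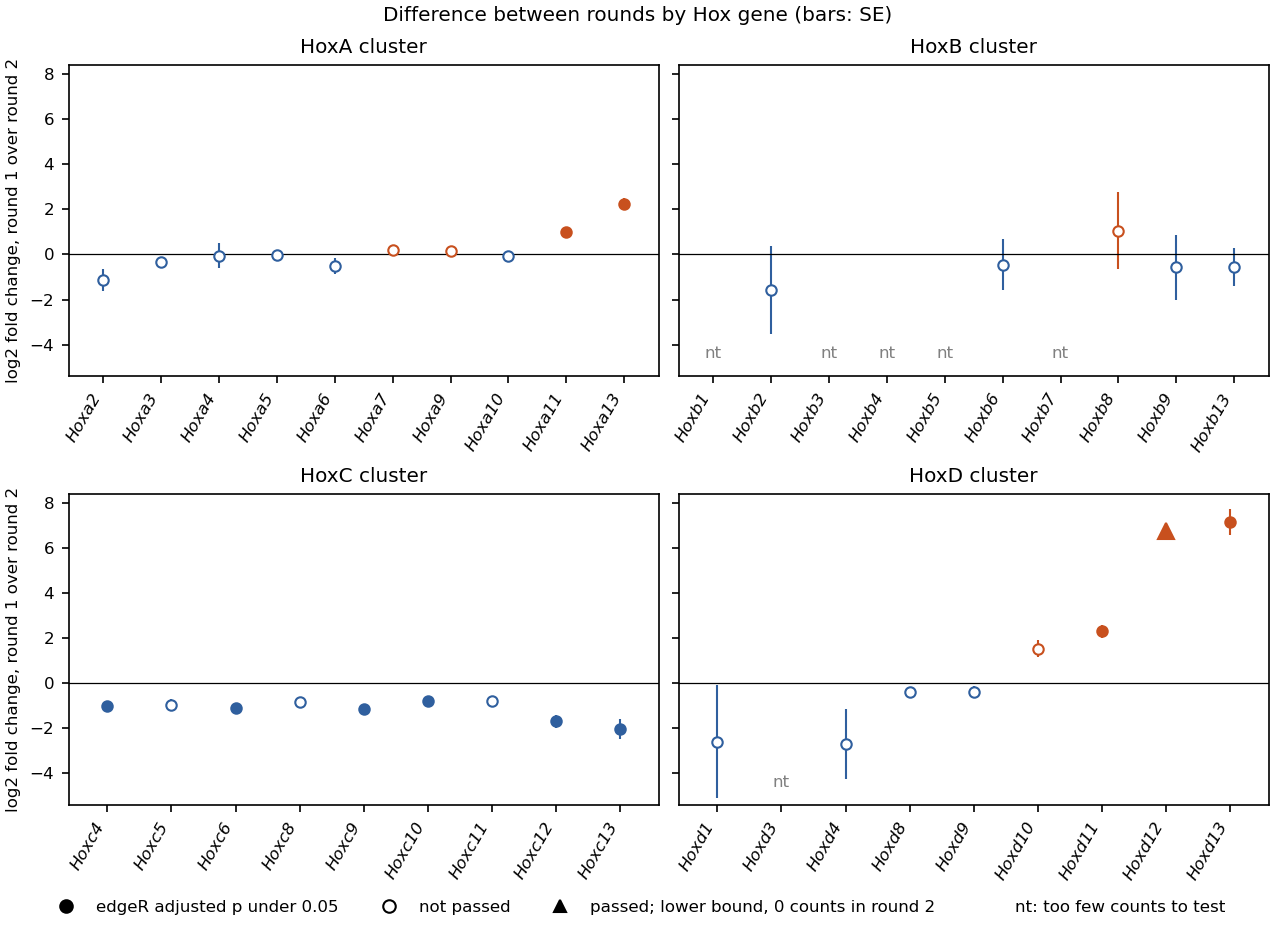
Log2 fold change of round 1 over round 2 with its SE for 38 Hox genes, by cluster and paralog number, with nt for those not tested; filled points passed an edgeR adjusted p of 0.05, open points did not, and the triangle for Hoxd12 is a lower bound. Values climb at the high-number end of HoxA and HoxD, up to 7.17 for Hoxd13, and all 9 HoxC values lie between -2.04 and -0.78.

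Single libraries decided some of these calls. Leaving out 1 library at a time gave 7 to 17 called members. Hoxa13, Hoxc9, Hoxc12 and Hoxd11 passed in 8 of the 8 such fits. Hoxd13 kept a log2 fold change of 6.66 to 7.66 but passed in 4 of 8, with edgeR adjusted p of 0.116 when wild-type SSC library 2 was left out, 0.0969 without wild-type BCSP library 1, 0.151 without KO SSC library 2 and 0.0601 without KO BCSP library 1. Hoxa11 passed in 3 of 8, with edgeR adjusted p of 0.0756 and 0.0857 without wild-type SSC library 1 and 2, 0.115 and 0.113 without KO SSC library 1 and 2, and 0.0963 without KO BCSP library 1.

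Hoxc13 and Hoxc4 each passed in 5 of 8, Hoxc13 with edgeR adjusted p of 0.126, 0.145 and 0.0571 without wild-type SSC library 1, wild-type SSC library 2 and KO BCSP library 2, and Hoxc4 with 0.0539, 0.0568 and 0.0514 without wild-type SSC library 1, wild-type SSC library 2 and KO BCSP library 1. Hoxc10 (0.0533) and Hoxc6 (0.0567) were lost only without KO SSC library 2, among the fits that leave out 1 library. Without wild-type BCSP library 2, Hoxa6, Hoxc5, Hoxc8, Hoxc11, Hoxd4 and Hoxd10 were added, in a fit where calls over all genes rose strongly as well. With round as the only term 9 members passed and Hoxa11 and Hoxc13 did not. Over all genes 222 passed in that fit, against 476 with genotype and cell type as terms. DESeq2 called 15, among them these 11 and Hoxc5, Hoxc8, Hoxc11 and Hoxd10, with 5.41% of its 20864 tested genes called.

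The gene next to Hoxd13 moved with it. Evx2, a homeobox gene 8.75 kb beyond the Hoxd13 start that shares limb enhancers with the 5′ HoxD genes, stood at 2.97, 3.93, 4.33 and 3.88 CPM in wild-type SSC, wild-type BCSP, KO SSC and KO BCSP of round 1 and at 0.116, 0.279, 0.451 and 0.328 CPM in round 2. The rounds did not overlap, with a log2 fold change of 3.75 ± 0.34 (SE, edgeR adjusted p 0.000508). Lnpk, further out on the same side, ranged from 15.3 to 20.6 CPM in round 1 and 6.58 to 13.9 CPM in round 2 and did not pass (0.72 ± 0.20, edgeR adjusted p 0.0864). Lnpk did pass with DESeq2 (adjusted p 0.0241), without a filter on low counts (0.00165), and without wild-type BCSP library 2 (0.00092), KO BCSP library 2 (0.0123) or both (0.00182).

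Within 500 kb outside each cluster, a window chosen after values were seen, Evx2 was the 1 gene that passed in edgeR with all 8 libraries and the filter among 8 tested around HoxD, and none passed among 9 around HoxA, 21 around HoxB and 29 around HoxC. Of the flanking genes listed for HoxA, 1 of 8 tested passed, Jazf1, which lies beyond this window, at 9.81 ± 2.85 CPM in round 1 and 16.1 ± 4.58 CPM in round 2 (-0.72 ± 0.14, edgeR adjusted p 0.0186). The Jazf1 call was lost with round alone (0.212) and in 6 of 8 fits that left out 1 library (edgeR adjusted p 0.0518 to 0.0925), namely any SSC or KO BCSP library. Of the flanking genes listed for HoxB and HoxC, 0 of 5 and 0 of 7 passed in edgeR, Cbx5 next to HoxC being the 1 with an unadjusted p under 0.05 (0.0378). Genes of the 500 kb window outside these lists went lower. The lowest edgeR p was 0.00244 around HoxB (adjusted p 0.0816) and 0.00151 around HoxC (adjusted p 0.0612). Among the 8 tested noncoding transcripts of the clusters (of 17 in the table), Hoxa11os was the 1 that passed, and Hoxd3os1 had -1.16 ± 0.44 (edgeR adjusted p 0.257).

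**Figure D4:**
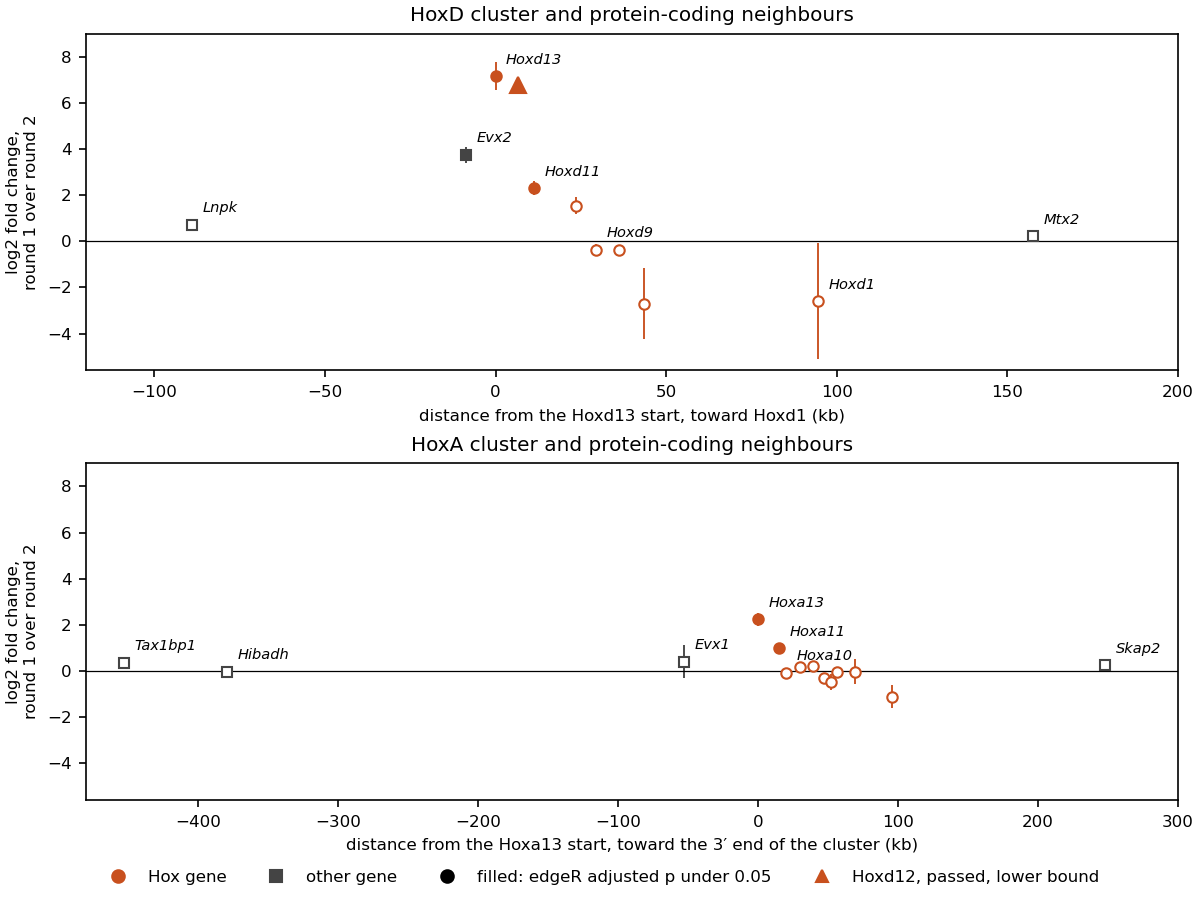
Log2 fold change of round 1 over round 2 (with SE) against distance in kb from the start of Hoxd13 (top) and Hoxa13 (bottom), for Hox genes (circles) and tested protein-coding neighbours (squares); filled symbols passed an edgeR adjusted p of 0.05 and the triangle is the lower bound of Hoxd12. Evx2 (3.75) stands beside Hoxd12 and Hoxd13, and the HoxD values from Hoxd9 on lie below 0.

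Partners of Hox proteins and limb patterning genes also differed between rounds. Of 11 tested TALE homeobox genes, whose proteins bind DNA together with Hox proteins, 3 were lower in round 1, 0 were higher and 9 had values below 0, with a median of -0.24. These were the Meis genes, of which Meis1 and Meis2 mark the proximal limb. Meis1 stood at 4.06, 3.90, 3.55 and 3.22 CPM in round 1 and 8.60, 8.95, 8.10 and 7.76 CPM in round 2, with no overlap (-1.18 ± 0.16, edgeR adjusted p 0.00338). Meis2 averaged 2.30 ± 0.582 against 5.61 ± 1.13 CPM (-1.31 ± 0.24, edgeR adjusted p 0.0141). Meis3 averaged 1.37 ± 0.962 against 2.73 ± 1.40 CPM, and its rounds overlapped (-1.17 ± 0.28, edgeR adjusted p 0.0472). Meis1 passed in 8 of 8 fits that left out 1 library. Meis2 was lost without wild-type SSC library 1 (edgeR adjusted p 0.0577) or 2 (0.0615). Meis3 was lost with round alone (0.502) and without any 1 of the 4 SSC libraries or KO BCSP library 1 (edgeR adjusted p 0.0886 to 0.187).

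Of 14 tested genes of the posterior limb and the hand or foot plate (16 listed), 3 passed as higher and 1 as lower in round 1. The list as a whole had 7 values above 0 and 7 below, with a median of 0.06. Sall1, a zinc finger gene of the distal limb, stood at 2.83, 5.90, 4.96 and 7.66 CPM in round 1 and at 0.162, 0.349, 0.0752 and 0.509 CPM in round 2, with no overlap (4.42 ± 0.35, edgeR adjusted p 0.000269). Hand2, which acts upstream of Shh at the posterior limb margin, averaged 2.62 ± 0.268 against 0.833 ± 0.354 CPM (1.72 ± 0.29, edgeR adjusted p 0.00944), and Dlx5 averaged 26.5 ± 5.63 against 13.8 ± 4.29 CPM (0.96 ± 0.17, edgeR adjusted p 0.0109). Grem1, a BMP antagonist, was lower, at 31.1 ± 4.22 against 49.6 ± 4.59 CPM (-0.68 ± 0.14, edgeR adjusted p 0.0209). Sall1, Hand2 and Dlx5 passed in 8 of 8 fits that left out 1 library, and Dlx5 was lost with round alone (edgeR adjusted p 0.0569). Grem1 was lost without any 1 of the 4 SSC or 2 KO BCSP libraries (edgeR adjusted p 0.0585 to 0.126).

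Of 11 limb field genes 4 were lower in round 1: Tbx3 (3.997 ± 0.739 against 9.92 ± 1.83 CPM, edgeR adjusted p 0.00539), Tbx5 (5.70 ± 0.358 against 9.86 ± 1.17 CPM, 0.0192), Shox2 (46.1 ± 11.8 against 73.5 ± 11.9 CPM, 0.0201) and Prrx1 (14.7 ± 2.38 against 22.6 ± 3.29 CPM, 0.0342). Shox2 patterns the proximal limb bone. Of these, Tbx3 alone passed in 8 of 8 fits that left out 1 library. Tbx5 was lost without any 1 of the 4 SSC libraries or KO BCSP library 1 (edgeR adjusted p 0.0802 to 0.116), Shox2 without wild-type SSC library 1, KO SSC library 2 or KO BCSP library 1 (0.104 to 0.129), and Prrx1 without any 1 of the 4 SSC or 2 KO BCSP libraries (0.078 to 0.213). With round alone Shox2 (0.151) and Prrx1 (0.11, edgeR adjusted p) were lost too. The hindlimb genes Pitx1 (55.5 ± 4.06 against 74.5 ± 13.2 CPM) and Tbx4 (26.4 ± 10.5 against 26.1 ± 7.16 CPM) did not pass, with edgeR adjusted p of 0.212 and 0.957. The genes of both lists were chosen with results of these libraries known.

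Some markers of other cells also differed between rounds. All 10 blood markers had values above 0 and 2 passed (Lyz2 and Hba-a1), and their sum ran from 12.03 to 222 CPM in round 1 and from 3.47 to 6.48 CPM in round 2. All 5 keratinocyte markers had values below 0 and 1 passed (Krt14), with sums of 2.21 to 4.01 CPM in round 1 and 4.27 to 5.39 CPM in round 2. Of 5 tendon markers Kera and Mkx passed and were higher in round 1, while 3 had values below 0 (median -0.11). The tendon sums were 41.2 to 70.8 CPM in round 1 and 40.1 to 72.4 CPM in round 2. Of 6 tested muscle markers Acta1 passed and was lower, while 4 had values above 0 and 2 below (median 0.38). The muscle sums were 8.34 to 20.8 and 8.79 to 26.4 CPM. Of 7 sort markers Cd200 passed and was higher in round 1, with 5 values above 0 and 2 below. The sums were 97.1 to 184 and 72.3 to 126 CPM. No endothelial (of 6), Schwann cell or neuron (of 5) or cartilage (of 10) marker passed in edgeR, and no marker of these lists was at 0 in all libraries. Among these calls, Kera and Cd200 passed in 8 of 8 fits that left out 1 library. Lyz2 and Hba-a1 each passed in 5 of 8, Lyz2 not without wild-type SSC library 1, KO SSC library 2 or KO BCSP library 1 (edgeR adjusted p 0.0501 to 0.0676), and Hba-a1 not without KO SSC library 2 or either KO BCSP library (0.0509 to 0.0921). Krt14 passed in 3 of 8, without either wild-type BCSP library or KO SSC library 1, and Mkx in 2 of 8, without wild-type SSC library 1 or wild-type BCSP library 2, the other fits giving an edgeR adjusted p of 0.0532 to 0.104 and 0.083 to 0.162. Acta1 was lost without wild-type SSC library 1 (edgeR adjusted p 0.071). With round alone Acta1 (0.548), Krt14 (0.103) and Mkx (0.152, edgeR adjusted p) were lost. The part of these cells in the Hox differences was not tested.

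No tested Hox gene was called different between Tet1 KO and wild type, the comparison the study was designed for. In edgeR, 0 of 33 tested members passed in SSC, 0 in BCSP, 0 over both cell types and 0 in the test of the difference between the cell types. Over all tested genes 0.00451%, 0.00451%, 0.0135% and 0.00% passed. At an unadjusted p under 0.05 there were 0 members in SSC (1.20% of all genes), 2 in BCSP (6.19%), 0 over both (7.91%) and 1 in the difference (1.27%). Of those in BCSP, Hoxb2 was tested only because of its wild-type BCSP counts. DESeq2 also called 0 members in each of the 4 comparisons, where 0.0406%, 0.118%, 0.494% and 0.00% of its tested genes passed. At an unadjusted DESeq2 p under 0.05 there were 0, 2, 1 and 1 members. Of the 22153 genes that passed the filter on low counts, 418, 1830, 2218 and 414 were under it in the same order. The members' median log2 fold changes were 0.04 in SSC, 0.07 in BCSP (the same with Hoxb2 at its lower bound) and 0.04 over both, against 0.0106, 0.00776 and 0.0169 over all tested genes. Of 5 sex-linked genes, 4 had values above 0 for KO over both cell types (median 0.91) and 0 passed in edgeR. Their sum was 319 to 687 CPM in wild type and 197 to 428 CPM in KO, with overlap. The part of sex in the genotype values was not tested.

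Hoxa10, at the 5′ side of HoxA, had the lowest p over both cell types in the model without a round term. It stood at 33.2 and 31.6 CPM in wild-type SSC library 1 and 2, 33.8 and 41.6 in wild-type BCSP, 27.6 and 30.3 in KO SSC, and 29.2 and 28.6 in KO BCSP. The KO libraries lay below all wild-type ones, which held for 1 member and for 2.24% of all tested genes. This alone makes KO lower in 4 of 4 pairs of the same round and cell type, so the pairs add no support. Of all tested genes 9.84% were lower in KO in 4 of 4. The difference of -0.27 ± 0.14 (SE) did not pass (p 0.0694, edgeR adjusted p 0.639). With round as a block, Hoxc13 (1.23 ± 0.43, p 0.014, edgeR adjusted p 0.356), Hoxc8 (0.49 ± 0.20, p 0.033, adjusted 0.427) and Hoxd11 (p 0.0564) came before Hoxa10 (p 0.0608), and 2 members had an unadjusted p under 0.05, where 11% of all genes did. No member had all KO libraries above all wild-type libraries, where 2.13% of all genes did.

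In BCSP, the lowest p belonged to HoxB genes of very low level. Hoxb6 stood at 0.1399 and 0.209 CPM in wild-type BCSP and at 0 and 0.00821 CPM in KO BCSP (p 0.0118, edgeR adjusted p 0.686). Hoxb2 stood at 0.114 and 0.132 CPM in wild-type BCSP and at 0 counts in both KO BCSP libraries. That was at least 10.1-fold higher in wild type against the floor of 3 counts over the group (p 0.0484, edgeR adjusted p 0.686). Its p adds no support, since Hoxb2 passed the filter only with its wild-type BCSP counts. Hoxb6 and Hoxb2 both lay well under 1 CPM. Hoxb6 also had the 1 unadjusted p under 0.05 for the difference between cell types (4.84 ± 2.15, p 0.0428, edgeR adjusted p 1). Hoxa4 followed in BCSP with -1.54 ± 0.75 and an adjusted p of 0.686, and in SSC the lowest p was that of Hoxa6 (0.58 ± 0.56, edgeR adjusted p 1).

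For the genes that parted by round, the genotype estimates had wide errors in a model without a round term, each group holding a library of either round. Over both cell types Hoxd13 had 0.25 ± 2.38, Hoxa13 0.53 ± 0.90, Hoxd11 0.52 ± 0.76, Hoxc12 0.49 ± 0.65, Hoxa11 -0.08 ± 0.39 and Hoxc10 -0.08 ± 0.26 (SE). Within a round the KO and wild-type libraries can be set side by side, 1 against 1 and with no test. In round 1, Hoxd13 differed by 0.55 in SSC and -0.01 in BCSP on the log2 scale. Hoxd12 differed by -1.67 in SSC and -0.97 in BCSP. Hoxc13 differed by 2.04 in SSC and 2.06 in BCSP, as large as its own difference of -2.04 between rounds. These values rest on 25 and 18 counts in the wild-type libraries. In round 2 Hoxc13 differed by -0.215 in SSC and 1.20 in BCSP, so the rise was not steady. Hoxd10, Hoxd11 and Hoxa5 were higher in KO in 4 of 4 pairs, where 10.6% of all tested genes were.

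**Figure D5:**
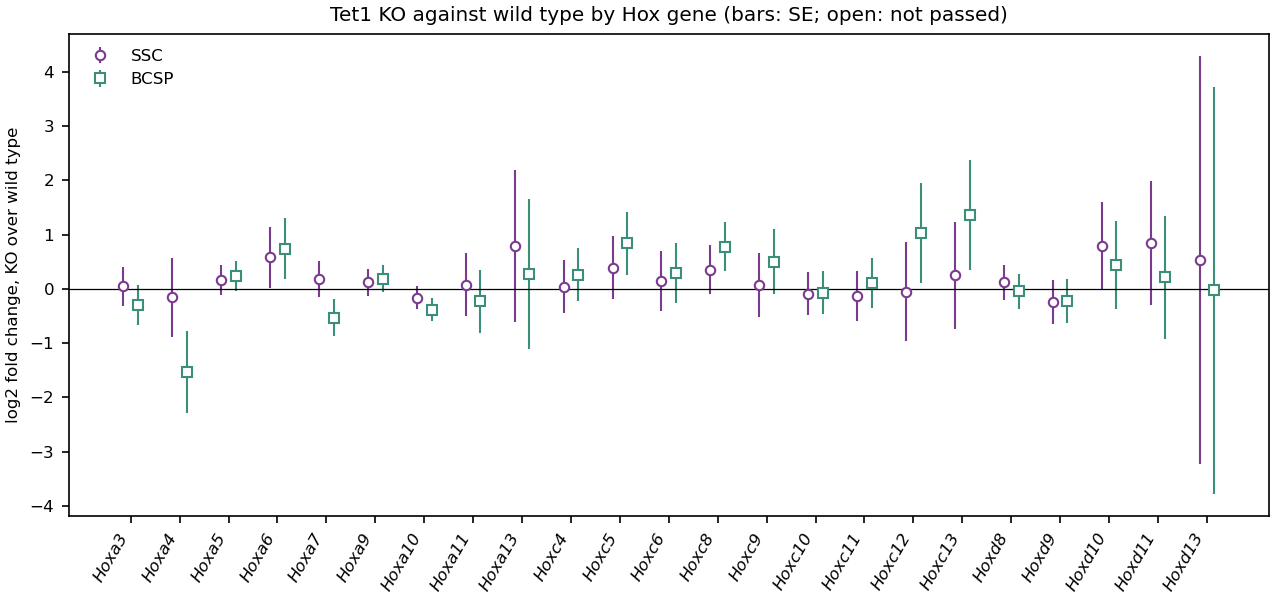
Log2 fold change of Tet1 KO over wild type with its SE in SSC (circles) and BCSP (squares) for the 23 tested Hox genes of at least 0.5 CPM on average, Hoxd12 left out. No value passed an edgeR adjusted p of 0.05, and the error bars are widest for Hoxd13 and Hoxa13, the genes that parted by round.

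No tested Hox gene was called different between SSC and BCSP. In edgeR, 0 of 33 tested members passed for SSC against BCSP, where 0.00451% of all genes passed, and 1 had an unadjusted p under 0.05, where 3.71% of all genes did. DESeq2 called 0 members, where 0.180% of its tested genes passed. At an unadjusted DESeq2 p under 0.05 there were 2 members, and 1121 of the 22153 genes that passed the filter on low counts. The 1 member under it in edgeR was Hoxa3, a gene of anterior identity. It stood at 3.45 and 4.37 CPM in wild-type SSC library 1 and 2, and 4.77 and 3.30 in KO SSC library 2 and 1. In wild-type BCSP it stood at 2.75 and 2.92 CPM, and in KO BCSP at 2.07 and 2.54 CPM. Its SSC libraries lay above all BCSP libraries, which held for 1 member and 1.48% of all genes, with 0.63 ± 0.24 (SE, p 0.02, edgeR adjusted p 1). Antisense exons cover 25.4% of Hoxa3. In pairs of the same genotype and round, Hoxa3 and Hoxa9 were higher in SSC in 4 of 4 (7.4% of all tested genes), and Hoxa13, Hoxd8 and Hoxd11 lower in 4 of 4 (6.62%). For Hoxa3 this follows from its ranges and adds no support. The fold changes of Hoxa13 and Hoxd11 did not pass (-0.76 ± 0.90 and -0.59 ± 0.76, SE; edgeR adjusted p 1 for both). With round as a block 3 members, Hoxa3, Hoxd11 and Hoxa13, had an unadjusted p under 0.05, where 5.04% of all genes did, and none passed the adjusted threshold (lowest edgeR adjusted p 0.677). The summed Hox level was 168.1 ± 5.67 CPM in SSC and 173 ± 3.64 CPM in BCSP (SD, n = 4 each). For comparison Eng, a sort marker, fell by 3.84 on the log2 scale in SSC (edgeR adjusted p 1.26e-06).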

How the data were processed

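Bulk RNA sequencing of 8 libraries was analysed from a deposited table of whole-number counts per gene. The submitters' processing notes list STAR, featureCounts, DESeq2 and mm10, with no versions; the annotation and the strand of counting are not given in the sources used here. Columns spelled SCC were taken as SSC, and those spelled BCP as BCSP. Positions, exon lengths and overlaps came from GENCODE M21, matched for 55230 of 55471 entries, and promoters from RefSeq (GRCm38.p6).

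Counts were filtered (filterByExpr, minimum count 10, minimum total 15, leaving 22153 genes), scaled by TMM (factors 0.854 to 1.06) and fitted with robust quasi-likelihood models in edgeR 4.0.16 (R 4.3.3, limma 3.58.1, package data.table in version 1.17.8) over all 8 libraries, with Benjamini-Hochberg adjustment and a threshold of 0.05. Genotype and cell type models held no round term. Alternatives were DESeq2 1.42.0, its size factors in edgeR, no filter, round as a block, round alone, and left-out libraries. SE is the fold change over the square root of F. Floors and counts cover counting error only. The code was tested on simulated counts. Tables and plots used Python 3.11.15, pandas 2.3.3, numpy 2.4.6 and matplotlib 3.10.9.

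The Hox members and all gene lists were chosen with earlier results of these data known, among them the Hoxd13 difference between rounds, which is therefore no independent support. Values in every library are given for members called in a comparison and for the 5 of highest mean CPM per kb; any Hox member may be named. From the other lists, genes called in a comparison and the 2 of lowest p may be named, with Tet1, Pitx1, Tbx4, Tbx5, Col2a1 and Eng as checks. One member is counted in sums and totals and is not reported here by itself. Promoters shown, the 500 kb window and Hox genes counted by pairs were chosen after values were seen.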

Additional observations from a re-analysis of the deposited data

Results flagged for a closer look

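In round 1, Hoxd13 and Hoxd11 each had 1 library far from the other 3. The gap between the lowest library and its nearest neighbour was 0.918 of the whole range for Hoxd13 and 0.856 for Hoxd11, above Dixon's 95% critical value for 4 libraries. In both it was wild-type SSC library 1, at 18.6 CPM of Hoxd13 against 26.5 to 27.2 CPM and at 1.49 CPM of Hoxd11 against 2.82 to 3.04 CPM. The same library was the lowest of round 1 in Hoxa13 and Hoxd10 and the highest in Hoxd12. Chance flags about 1 in 20 groups, so a search over many members and both rounds can give such flags by chance.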

How the results depend on the processing

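The number of Hox genes called between rounds was 11, and 7 to 17 with 1 library left out. It was 14 without a filter, 15 with DESeq2, 11 with its size factors, 9 with round alone and 14 without both BCSP libraries of round 2. Genotype and cell type called 0 members under every setting run. Leaving Col2a1, Col11a2 and Sparc out of the library size raised the summed Hox level from 164, 171, 172 and 174 CPM to 236, 235, 254 and 257 CPM in wild-type SSC, wild-type BCSP, KO SSC and KO BCSP.

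Same-numbered libraries deviated together with correlations of 0.023 to 0.24 between groups, under 0.1 in 2 of 6 pairs of groups. The numbers thus do not establish pairing over all genes. The Hox genes called between rounds shared their direction in 4 of 4 groups. They were chosen by that same test, so their direction adds no support for pairing. With the replicate block (round), all genes called went from 1 to 2 in SSC, 1 to 3 in BCSP, 3 to 28 over both cell types, 0 to 2 for the difference and 1 to 2 for cell type, with no Hox gene among them (lowest edgeR adjusted p 1, 0.522, 0.356, 1 and 0.677). Members with an unadjusted p under 0.05 went from 0 to 0, 2 to 3, 0 to 2, 1 to 1 and 1 to 3 in the same order. The share over all genes rose as well, from 1.2 to 2.05%, 6.19 to 9.23%, 7.91 to 11%, 1.27 to 1.53% and 3.71 to 5.04%. The block narrowed Hoxd13 over both cell types to -0.45 ± 0.50 (SE) from 0.25 ± 2.38, and its sign turned.

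Over both cell types, other small genotype values also turned sign. Hoxd13 was -0.20, -0.12, -1.42 and -1.02 without wild-type SSC library 2, wild-type BCSP library 2, KO SSC library 1 and KO BCSP library 1. Hoxc10 was 0.02, 0.16, 0.08 and 0.07 without the same 4 libraries. Hoxa11 was 0.07, 0.11 and 0.21 without wild-type SSC library 1, KO SSC library 2 and KO BCSP library 2, and 0.15 without both BCSP libraries of round 2. Hoxc12 was -0.25 without KO BCSP library 2 and -0.083 without both BCSP libraries of round 2. In SSC, Hoxd10 was -0.13 without KO SSC library 1 and Hoxc8 -0.60 without KO SSC library 2. Between rounds, Tbx4 was 0.015 with round alone and 0.12 and 0.05 without wild-type SSC library 1 and 2. With 1 library left out these values ran from -1.42 to 1.82 for Hoxd13, -0.26 to 0.16 for Hoxc10, -0.47 to 0.21 for Hoxa11, -0.25 to 0.94 for Hoxc12, -0.13 to 1.33 for Hoxd10, -0.60 to 0.91 for Hoxc8 and -0.16 to 0.12 for Tbx4. None of these values passed; the cause was not tested.

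Over all genes, the round count of 476 became 1062 without a filter, 1128 with DESeq2, 222 with round alone, 1932 without both BCSP libraries of round 2, and 208 to 4072 with 1 library left out. Genotype counts without a filter were 4, 38 and 234 in SSC, BCSP and both, and 9, 20 and 103 with DESeq2; cell type gave 66 and 39.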
